A study of Mus musculus with 12 samples.

Results

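Mouse embryonic stem (ES) cells of the line rtTA-Dmrt5 were turned towards neural fates in culture, and their RNA at day 9 of differentiation was set against their RNA at day 7, both without doxycycline (Dox). The comparison takes the 2 arrays labelled day 9 without Dox and the 2 labelled day 7 without Dox, 4 of the 12 arrays in the series, and covers the 18193 genes that a probe set names with a single symbol. The line carries the tetracycline activator rtTA and a Dmrt5 transgene that Dox switches on, so all 4 arrays come from cells that hold the transgene and were not given the drug. Dmrt5, now named Dmrta2, encodes a DM-domain transcription factor needed for patterning of the cortex and midbrain. Cells grew as a monolayer in N2B27, a serum-free medium in which ES cells take a neural fate without added inducers. Another pair of groups, the same line at day 9 and at day 7 with Dox given at day 5, supplied 4 further arrays against which the change was tested. The parental line rtTA, also harvested at day 7, entered the estimate of the spread between replicates and the median on which values are centred, and is quoted once, for Pou5f1. The line stands for a single engineered ES cell line, and the labels do not say whether the 2 replicates of a group were separate cultures, so p-values measure only the spread between these samples, which may be technical.

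In such cultures ES cells first become neural progenitors that divide as a rosette-forming epithelium and express Sox1. Progenitors then leave the cell cycle, switch on proneural factors such as Neurog2, and become young neurons that build axons, synapses and a transmitter identity. Notch signalling holds neighbouring cells as progenitors, Wnt and Fgf signals pattern them along the body axis, and the RNA-binding proteins Lin28a and Trim71 mark early developmental time and are switched off as development goes on. A day 9 minus day 7 comparison without Dox therefore asks what the line does in its own time, with the transgene not induced.

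Values were on a log2 scale, and every probe set had been centred on its median over the 12 arrays, so a value is a difference from that median and not a level. A positive value is taken to mean more RNA. The log base, the centring and the direction are not stated in the sources used here. Array medians ran from -0.01 to 0.01, and genes of the 4 level classes that the centred values still reveal, from log2 8 and above to under 2, made up 32.9%, 39.9%, 24.7% and 2.55% of all genes. The polyA spike-ins added to the RNA averaged 0.06 and -0.03 at day 9 and 0.07 and 0.02 at day 7. The 3′ minus 5′ signal of Actb, which follows RNA integrity, was 0.005 and -0.053 at day 9 and 0.065 and 0.048 at day 7. Both of its probe sets are centred, so it compares arrays and gives no absolute measure of integrity. The day 9 minus day 7 differences were -0.029 for the polyA spike-ins and -0.081 for Actb. The number of arrays limits the precision: the median standard error (SE) of a day change was 0.127.

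Dmrta2, the gene of the transgene, came first as a check of the labels. Its centred log2 value was 1.07 and 1.16 in the 2 arrays at day 9, against 1.91 and 1.85 in the 2 arrays at day 7. Both day 9 arrays were lower than both day 7 arrays, but the log2 change of -0.76 (SE 0.33) did not pass the threshold of adjusted p 0.05 (limma, Benjamini-Hochberg over all genes, adjusted p = 0.163). In the arrays labelled +Dox the same probe set read -1.07 and -1.92 at day 9 and -0.14 and -0.95 at day 7. The arrays labelled +Dox thus did not read higher, and whether this single probe set covers transgene sequence was not stated in any source read, so it neither checks nor contradicts the Dox labels.

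Over 2 days without Dox, 2726 of 18193 genes changed (15% of genes tested), 1433 of them higher at day 9 (7.88%) and 1293 lower (7.11%). Of the 2726, 304 were at least 2-fold higher (1.67% of genes tested) and 124 at least 2-fold lower (0.682%). Fitted alone, the 5983 genes with a level of at least 8 had the balance the other way, 825 higher and 1065 lower. All 2726 kept both day 9 arrays on one side of both day 7 arrays, as did 10728 genes (59%) in all. The median absolute day change over all genes was 0.171, against a median absolute difference of 0.122 between the day 9 replicates and 0.104 between the day 7 replicates. The smallest change that passed was 0.271. Calls were about as frequent among genes with a level of at least 8 (18.6%) as among genes of 4 to 8 (20.1%), and rarer among genes of 2 to 4 (3.29%) and under 2 (1.73%). Without 1 of the 4 arrays in turn, 1217 genes passed (without replicate 1 of day 7), 1444 (replicate 2 of day 7), 1351 (replicate 1 of day 9) and 1573 (replicate 2 of day 9), in fits with fewer samples. Of the 191 genes named below that passed, 140 kept their call each time. Gene values rest on the brightest probe sets. With the mean of all probe sets of a gene, the day changes of 34 of the 191 moved by over 1.5 times: Acss1, Calb1, Cdon, Chl1, Dab2, Ddit3, Etv4, Gabra3, Gpr22, Grin2b, Hoxb4, Il17rd, L1cam, Lmx1b, Mcm6, Mcoln3, Minar2, Nfia, Nkx1-2, Notch1, Otp, Pfkp, Prrx1, Rab3c, Reln, Scn2a, Scn3b, Sez6l, Sox1, Sox9, Ss18l1, Syp, Tbx3 and Utf1. Of these, Etv4, Hoxb4, Prrx1, Sox1, Sox9, Tbx3 and Utf1 then did not pass, nor did Dnmt3a and Notch2. In addition, at least 1 other probe set had the opposite sign for Cdon, Ddit3, Dnmt3a, Ebf1, Fgf4, Gabra3, Lmx1b, Mcm6, Neurod2, Nfia, Nfib, Nkx1-2, Nr4a2, Prrx1, Slc32a1, Ss18l1, Tac1 and Utf1, and for the genes where this is said below. These are cultures of mixed cells, in which more cells of a type and more RNA per cell cannot be told apart.

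The 15 largest increases began with an adhesion molecule. Chl1, a cell adhesion molecule of the L1 family, read 2.73 and 2.74 at day 9 and -0.72 and -0.57 at day 7. On its brightest probe set it gave the largest increase of any gene, log2 3.38 (SE 0.227, adjusted p = 3.88e-05), and the groups lay far apart in the brightest of its 4 probe sets, though another of its probe sets read -0.33. With the mean of all 4 its change was 0.82, less than 2-fold, while 225 genes passed as at least 2-fold higher in that setting. Cbln2, a secreted organiser of synapses, read 0.93 and 0.64 at day 9 and -1.99 and -2.19 at day 7, a log2 change of 2.88 (SE 0.161, adjusted p = 1.52e-05). Gad2, which makes the inhibitory transmitter GABA, read 2.63 and 2.34 at day 9 and -0.26 and -0.52 at day 7, with a log2 change of 2.87 (SE 0.14, adjusted p = 8.65e-06). In all of these the spread within a group was a small part of the gap between groups. Lamp5, a neuronal membrane protein, stood at 2.77 and 2.70 at day 9 and at -0.01 and -0.16 at day 7 (log2 2.82, SE 0.124). For Shox2, a homeobox gene of hindbrain and thalamic neurons, the values were 2.37 and 2.56 at day 9 and -0.25 and -0.40 at day 7 (log2 2.79, SE 0.208). Pcp4, a small calmodulin-binding protein of neurons, rose by log2 2.66, and Otp, a homeobox gene that specifies hypothalamic neuroendocrine cells, by 2.60, though the other probe set of Otp read -0.005. The rest of the 15 were Tmem130 (2.55), the cell cycle inhibitor of neurons Brinp1 (2.55), Minar2 (2.54), the orphan receptor Gpr22 (2.49), E130114P18Rik (2.43), Sez6l (2.42), the mitochondrial acetate-activating enzyme Acss1 (2.36, with 1 of 3 probe sets at -0.11) and Bcl11a (2.30), a zinc finger factor of cortical and spinal neurons.

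**Figure D1:**
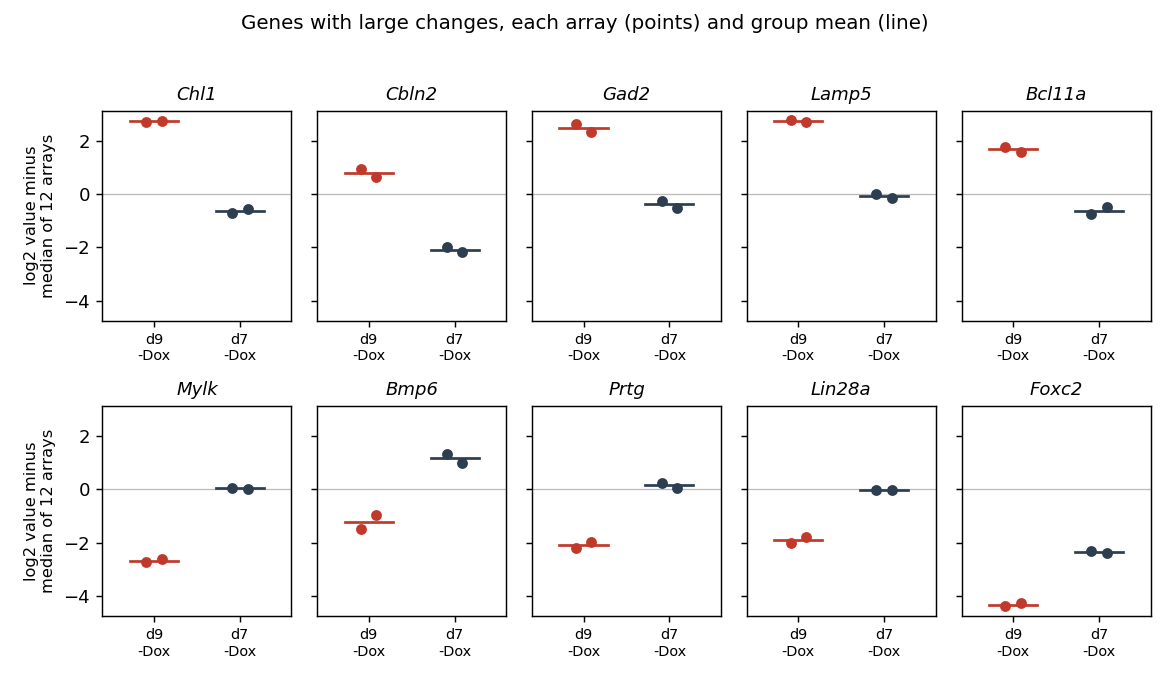
Centred log2 values (vertical axis) of 10 genes in the 2 arrays at day 9 and the 2 at day 7 without Dox, each point an array and each line the group mean. Chl1, Cbln2, Gad2, Lamp5 and Bcl11a lay higher at day 9 and Mylk, Bmp6, Prtg, Lin28a and Foxc2 lower. The groups do not overlap in any of them, as in all 2726 genes called and in 59% of all genes.

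The 15 largest decreases are given next. Mylk, the myosin light chain kinase of smooth muscle and other contractile cells, read -2.74 and -2.63 at day 9 and 0.05 and 0.03 at day 7. Its replicates differed by little over 0.1 within a group, and its log2 change of -2.72 (SE 0.0805) had the smallest adjusted p of any gene, 4.87e-07. Ddn read -1.31 and -1.44 at day 9 and 1.53 and 1.31 at day 7 (log2 -2.80, SE 0.195); its product dendrin is known from podocytes and dendrites. Bmp6, a secreted signal of the bone morphogenetic protein family, read -1.51 and -0.98 at day 9 and 1.32 and 0.99 at day 7 (log2 -2.40, SE 0.192, adjusted p = 9.98e-05). Each of these separated the days by several times the gap between its replicates. Prtg, protogenin, a receptor of early neural progenitors that restrains their differentiation, read -2.2 and -1.96 at day 9 and 0.25 and 0.04 at day 7 (log2 -2.22, SE 0.107, adjusted p = 8.65e-06). Foxc2, a forkhead factor of mesoderm and vessels, read -4.39 and -4.27 at day 9 and -2.30 and -2.40 at day 7 (log2 -1.98, SE 0.155). Both groups lie below 0, since the median is taken over all 12 arrays. Aldh1a7 fell by 2.51 on the log2 scale, with its replicates apart at day 9; it is a near copy of Aldh1a1 (log2 -0.05, adjusted p = 0.837), and its probe set may share signal with that gene. The others were the amino acid hydrolase Pm20d1 (-2.65), the angiotensin receptor Agtr1a (-2.14), the Hippo cofactor Vgll3 (-2.13), the lipid-cleaving enzyme Pla2g7 (-2.13), the somite homeobox gene Meox1 (-2.03), the carboxypeptidase Cpz (-2.0), the desmosome and p53 target gene Perp (-1.96), the protease Prss23 (-1.95) and the zinc finger factor Glis3 (-1.88).

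Many genes of the neuronal cytoskeleton and of neuronal RNA-binding proteins rose. Of 21 genes for the neuronal cytoskeleton, 14 rose and 0 fell, where 7.88% of all genes rose and 7.11% fell. Here and below, the lists were chosen with earlier results of these data known, and no list was tested against those shares. The median log2 change of the cytoskeleton genes was 0.56, against -0.01 over all genes. Mapt, which codes for the axonal protein tau, read 1.05 and 0.95 at day 9 and -0.72 and -0.90 at day 7 (log2 1.81, SE 0.104, adjusted p = 1.54e-05). Growth-cone genes rose too, Stmn4 by 1.21 and Gap43 by 1.02, and the general markers of new neurons Tubb3 by 0.39 and Dcx by 0.79. The neurofilament genes Nefl (0.27) and Nefm (-0.07) of mature axons did not pass. Among 12 genes for RNA-binding proteins of neurons, 8 rose and 0 fell (median 0.88), with Rbfox1 and Celf5 both at 1.18 and Rbfox3, whose product is the nuclear marker NeuN, at 0.94. Adhesion genes were mixed: 12 of 32 rose and 3 fell (median 0.43), or 9 to 10 rose and 1 to 2 fell without 1 of the 4 arrays. L1cam, the founder of the Chl1 family, read 0.71 and 0.70 at day 9 and -1.16 and -1.11 at day 7 (log2 1.84, SE 0.124), and Cdh2, the N-cadherin that holds neural progenitors together, fell by 0.37 on the log2 scale. Of 33 axon guidance genes 7 rose and 5 fell (median 0.18), or 2 to 3 fell without 1 of the 4 arrays. The netrin receptor gene Unc5d rose by 2.19 while its relative Unc5c fell by 1.19, and the ephrin receptor gene Epha5 rose by 1.44 while Epha7 fell by 1.10.

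The genes for synaptic release made up the list with the largest share of increases. Of its 26 members 21 rose and 0 fell (median 0.71). Syt4, a calcium sensor of dense-core vesicles, read 1.06 and 1.25 at day 9 and -0.72 and -0.90 at day 7 (log2 1.97, SE 0.123, adjusted p = 2.69e-05). Rab3c, a small GTPase of synaptic vesicles, read 1.29 and 1.18 at day 9 and -0.79 and -0.59 at day 7 (log2 1.92, SE 0.127). Both days' arrays were well apart in either gene. Scg2, a granin of secretory granules, rose by 1.81, the vesicle protein Sv2a by 1.35 and synaptophysin (Syp) by 1.09; Snap25, part of the membrane fusion complex, read log2 0.67 and did not pass (adjusted p = 0.172). Of 21 voltage-gated channel genes 10 rose and 0 fell (median 0.36), led by the sodium channel genes Scn2a (1.76) and Scn3b (1.75). Of 24 transmitter receptor genes 11 rose and 0 fell (median 0.32). Gria2, the AMPA receptor subunit that limits calcium entry, read 1.80 and 1.90 at day 9 and -0.30 and 0.06 at day 7 (log2 1.97, SE 0.179, adjusted p = 0.00017). The NMDA receptor subunit gene Grin2b rose by 1.68 and the GABA receptor subunit gene Gabra3 by 1.45, while the acetylcholine receptor genes Chrna4 (0.31) and Chrna7 (0.18) did not pass.

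**Figure D2:**
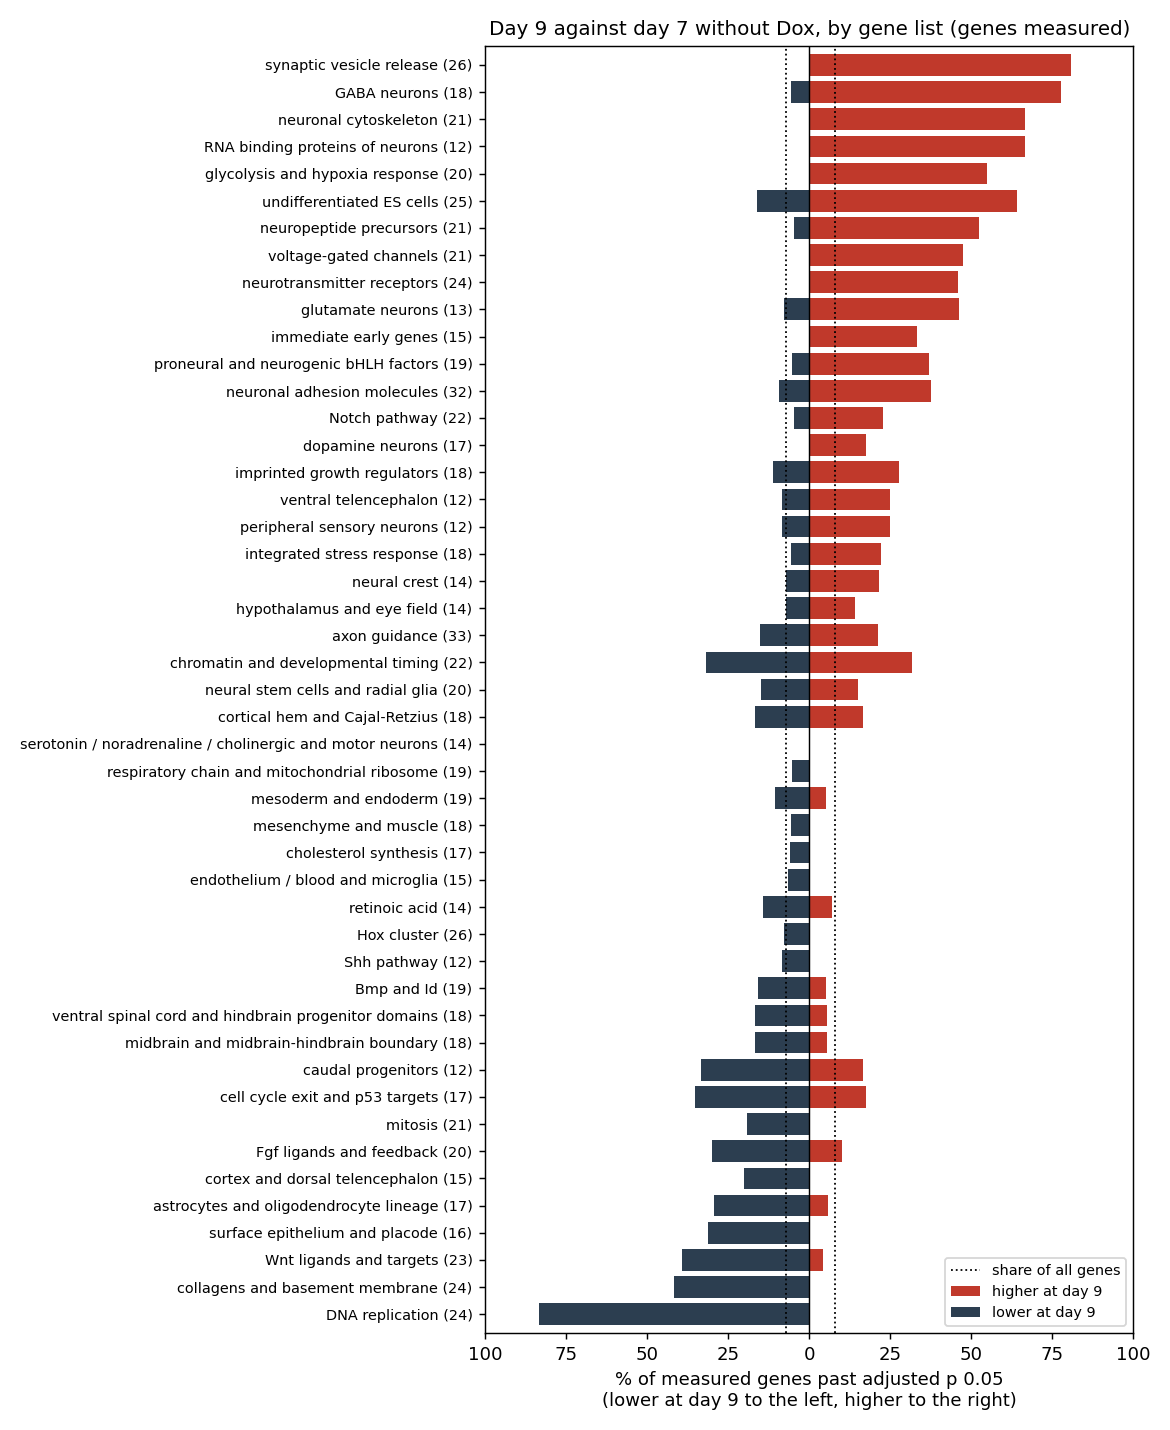
For each of 47 gene lists, the percent of its measured genes that passed adjusted p 0.05 higher at day 9 (bars to the right) or lower (bars to the left); the number measured stands after the name and the dotted lines mark the shares over all 18193 genes, 7.88% and 7.11%. Synaptic vesicle release has the longest bar to the right, 21 of 26 genes, and DNA replication the longest to the left, 20 of 24.

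Transmitter identity was read from lists of GABA, glutamate and other neurons. Of 18 genes of GABA neurons 14 rose and 1 fell (median 0.99), or 9 to 12 rose without 1 of the 4 arrays. Gad1, the other GABA-making enzyme, read 1.71 and 1.55 at day 9 and -0.01 and 0.11 at day 7 (log2 1.58, SE 0.116). The vesicular GABA transporter gene Slc32a1 rose by 0.97. Selectors of midbrain, hindbrain and spinal GABA neurons rose as well: Lhx1 read 1.5 and 1.51 at day 9 and -0.59 and -0.40 at day 7 (log2 2.01, SE 0.114, adjusted p = 1.52e-05), Tal1 rose by 1.72, Gata3 by 1.5 and Gata2 by 1.0. The forebrain selectors Dlx1 and Dlx5 passed at 0.77 and 0.88, while Dlx2 (1.03, adjusted p = 0.0736) and Dlx6 (0.25) did not pass. With the replicate number added to the fit, Dlx1 and Dlx5 did not pass either. Sst, the precursor of somatostatin, fell: it read 0.00 in both arrays at day 9 and 1.08 and 1.26 at day 7 (log2 -1.17, SE 0.141). Of 13 genes of glutamate neurons 6 rose and 1 fell (median 0.78), or 5 rose and 0 fell without 1 of the 4 arrays. The vesicular transporter gene Slc17a6 rose by 1.04, the homeobox genes Barhl2 and Lhx9 by 1.42 and 1.14 and Bcl11b by 1.12, while Fezf2, a selector of deep-layer cortical neurons, fell by 0.59 on the log2 scale.

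Of 17 genes of dopamine neurons 3 rose and 0 fell (median 0.08); these were Nr4a2 (0.50), Lmx1b (1.13) and Dlk1 (1.55), while Th, which makes the dopamine precursor L-DOPA, read 1.12 and 1.23 at day 9 and 0.99 and 0.71 at day 7 and did not pass (log2 0.33, adjusted p = 0.356). None of the 14 genes of serotonin, noradrenaline, cholinergic and motor neurons passed in limma at adjusted p 0.05, whatever the direction, and 6 passed an unadjusted 0.05, which 28.6% of all genes did. Of these 14, 9 had a level under log2 4, the lower classes in which calls were rare. Of 12 genes of peripheral sensory neurons 3 rose and 1 fell, or 1 to 2 rose and 0 to 1 fell without 1 of the 4 arrays. Among 21 neuropeptide precursors 11 rose and 1 fell (median 0.88). Penk, the enkephalin precursor, read 1.69 and 1.76 at day 9 and -0.06 and -0.18 at day 7 (log2 1.84, SE 0.154). Pomc rose by 1.74, Pnoc by 1.72, Adcyap1 by 1.72 and Tac1 by 1.48. Pmch (-0.18) and Trh (0.21), precursors made in the hypothalamus, did not pass.

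**Figure D3:**
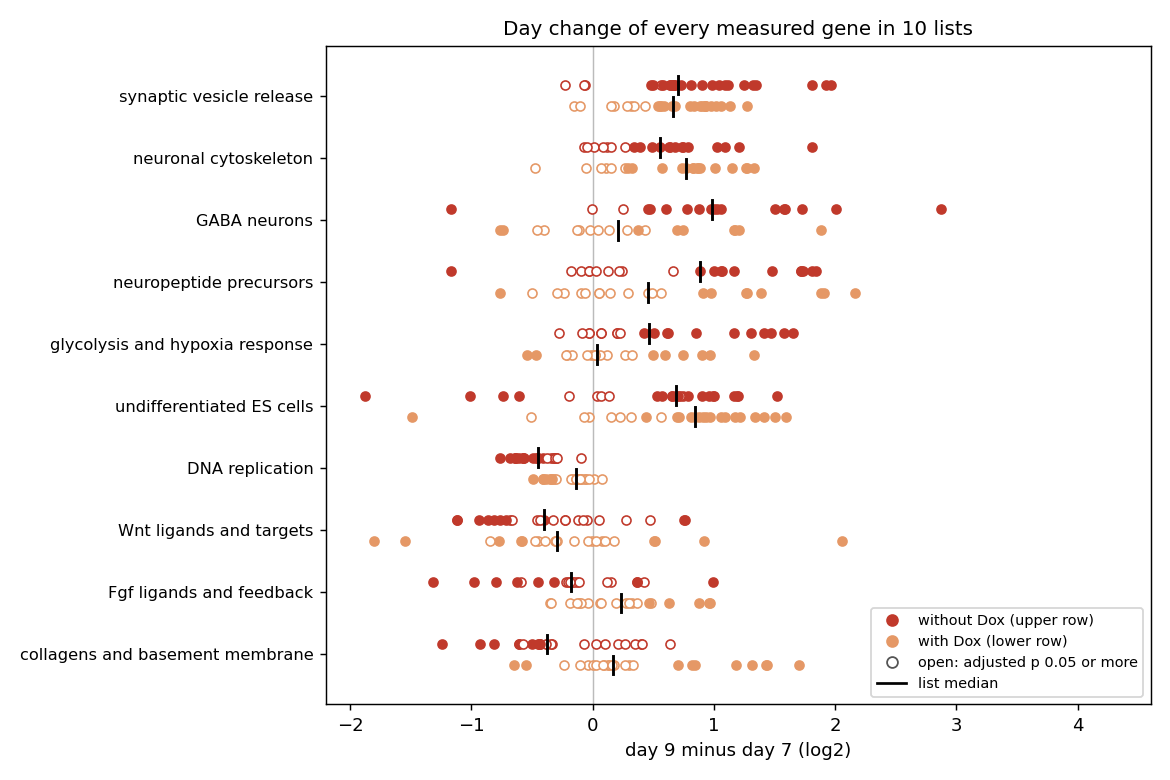
Day 9 minus day 7 change (log2, horizontal axis) of every measured gene in 10 lists, without Dox in the upper row of each list and with Dox in the lower; filled points passed adjusted p 0.05 and the black bars are list medians. Without Dox the medians of DNA replication and of collagens and basement membrane lie at -0.45 and -0.38, and that of glycolysis and hypoxia response at 0.46.

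Progenitor genes did not move as a block. Of 20 genes of neural stem cells and radial glia 3 rose and 3 fell (median -0.04), or 1 to 2 each way without 1 of the 4 arrays. Sox1 read -1.01 and -0.69 at day 9 and -0.04 and -0.14 at day 7 and fell by 0.76 on the log2 scale (SE 0.152, adjusted p = 0.00923). Zbtb16, the zinc finger factor PLZF of neural rosettes, fell by 0.79, and Sox9, a factor of later progenitors and glia, rose by 0.81. Pax6 (-0.11), Nes (-0.35), Hes5 (-0.37) and Fabp7 (0.05) did not pass. Among 19 proneural and neurogenic factors 7 rose and 1 fell (median 0.42), and 1 to 3 rose when 1 of the 4 arrays was left out. The factors of newborn neurons Myt1 (0.87), St18 (0.75), Ebf3 (0.78), Ebf1 (0.54), Insm1 (0.52), Nhlh1 (0.48) and Neurod2 (0.42) made up the increases. Neurog2 read 0.80 and Neurog1 -0.08, both short of the threshold. Olig2, a factor of motor neuron and oligodendrocyte progenitors, read 0.34 and 0.21 at day 9 and 1.54 and 1.26 at day 7 and fell by 1.12 on the log2 scale (SE 0.201). In the Notch pathway 5 of 22 genes rose and 1 fell, or 2 to 4 and 0 without 1 of the 4 arrays: the receptor gene Notch1 rose by 0.60 and Notch2 fell by 0.54, Hes6, which opposes Hes1, rose by 0.56 and the Notch inhibitor Numbl by 0.67, and the ligand genes Dll1 (0.32) and Dll3 (0.17) did not pass. Of 17 astrocyte and oligodendrocyte genes 1 rose and 5 fell (median -0.22), or 0 rose and 3 to 4 fell without 1 of the 4 arrays. Gfap read -0.09, Aqp4 -0.23 and Sox10 0.11, and Olig1 fell by 0.70 on the log2 scale.

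DNA replication genes fell together. Of 24 measured 20 fell and 0 rose, and 0 of the 24 had a positive change (median -0.45); without 1 of the 4 arrays, 9 to 13 fell. Cdc6, which loads the replicative helicase, read -0.79 and -0.71 at day 9 and -0.05 and 0.07 at day 7 (log2 -0.76, SE 0.106, adjusted p = 0.00151). Mcm6, a subunit of that helicase, read -0.72 and -0.71 at day 9 and -0.02 and -0.03 at day 7 (log2 -0.69, SE 0.09). The other helicase genes Mcm2, Mcm3, Mcm4, Mcm5 and Mcm7 fell by log2 0.64, 0.57, 0.58, 0.56 and 0.31, and Ccne1, the cyclin of the step into S phase, by 0.64. Of 21 mitosis genes 4 fell and 0 rose (median -0.19), or 2 to 3 fell without 1 of the 4 arrays, and Mki67 (-0.09) and Top2a (-0.12) did not pass. Among 17 genes of cell cycle exit and p53 targets 3 rose and 6 fell, or 2 to 4 fell without 1 of the 4 arrays. The inhibitor genes Cdkn1c and Cdkn2d rose by 0.50 and 0.55 and Gadd45g by 0.82, whereas the p53 targets Cdkn1a and Ccng1 fell by log2 0.70 and 0.82.

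Replication genes are textbook targets of E2F factors, and 3 of their promoters are shown for the E2F letters they hold. The 250 bases before the RefSeq start of each gene (build GRCm38.p6, on the strand of the gene) are printed with the matches to TTTCCCGC, TTTGGCGC or TTTCGCGC, read on both strands, in capitals; in Mcm6 and Mcm5 matches on opposite strands overlap.
Cdc6, chr11:98907901-98908150, plus strand: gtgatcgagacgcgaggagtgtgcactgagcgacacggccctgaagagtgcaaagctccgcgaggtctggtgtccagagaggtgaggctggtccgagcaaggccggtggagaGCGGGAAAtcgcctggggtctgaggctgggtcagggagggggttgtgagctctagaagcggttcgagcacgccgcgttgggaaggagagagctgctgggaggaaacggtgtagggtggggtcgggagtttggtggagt
Mcm6, chr1:128359706-128359955, minus strand: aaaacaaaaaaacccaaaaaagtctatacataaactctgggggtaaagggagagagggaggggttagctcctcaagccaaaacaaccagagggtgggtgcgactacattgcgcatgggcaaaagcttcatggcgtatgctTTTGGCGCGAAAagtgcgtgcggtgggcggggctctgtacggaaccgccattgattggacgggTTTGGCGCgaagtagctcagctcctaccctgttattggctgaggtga
Mcm5, chr8:75109259-75109508, plus strand: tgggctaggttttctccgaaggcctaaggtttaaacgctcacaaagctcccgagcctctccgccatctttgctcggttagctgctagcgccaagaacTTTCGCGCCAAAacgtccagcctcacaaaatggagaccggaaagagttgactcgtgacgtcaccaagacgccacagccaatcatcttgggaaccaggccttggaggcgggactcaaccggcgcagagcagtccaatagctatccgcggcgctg
These letters stood in 6 of 25 promoter windows of the replication list (24%), and in 504 of all 32851 windows in the table (1.53%). Of the 17 fallen genes with a window 5 held them, so most of the genes that fell had none. The match is a description of the letters alone.

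Markers of undifferentiated ES cells split, and most were higher at day 9. Of 25 genes 16 rose and 4 fell (median 0.69); without 1 of the 4 arrays, 8 to 11 rose and 3 fell. Pou5f1, the core pluripotency factor Oct4, read -0.14 and -0.49 at day 9 and -1.42 and -1.21 at day 7 (log2 1.0, SE 0.161, adjusted p = 0.00319). Tdgf1, the Nodal co-receptor Cripto, read -0.16 and -0.08 at day 9 and -1.79 and -1.49 at day 7 (log2 1.52, SE 0.108, adjusted p = 5.17e-05). Zfp42, the naive-state marker Rex1, read -0.57 and -0.39 at day 9 and -1.68 and -1.60 at day 7 (log2 1.16, SE 0.146). Both day 9 arrays lay above both day 7 arrays in all of these, and no gene called had groups that overlap. Nanog (0.65), Dnmt3l (1.19), Tcl1 (1.20), Fgf4 (1.0) and Utf1 (0.96) also rose. Klf4 (0.03) and Klf5 (-0.19) did not pass. The 4 that fell were Lin28a, Dnmt3b, Sall4 (-0.74) and Tbx3 (-0.61), of which Lin28a and Dnmt3b are also known from early neural progenitors. In the parental rtTA line at day 7 without Dox, Pou5f1 read 1.96 and 2.28, above every rtTA-Dmrt5 array of either day. The list's mean over its 25 genes lay between -0.315 and -0.31 at day 9 and between -0.752 and -0.735 at day 7; its part in the other results was not tested.

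Several genes of early developmental time fell. Lin28a, which blocks the maturation of let-7 microRNAs, read -2.01 and -1.79 at day 9 and -0.01 and -0.04 at day 7 (log2 -1.87, SE 0.104, adjusted p = 1.52e-05). Trim71, a let-7 target that keeps progenitors dividing, read -1.28 and -1.24 at day 9 and 0.08 and -0.25 at day 7 (log2 -1.18, SE 0.162). Hmga2, a chromatin protein of young stem cells and another let-7 target, read -0.98 and -1.13 at day 9 and 0.01 and -0.06 at day 7 (log2 -1.03, SE 0.0914). Igf2bp1 and Igf2bp3 fell by log2 0.35 and 0.46, and Lin28b read -0.05 and did not pass. Of the 22 genes of chromatin and timing 7 rose and 7 fell. Actl6b, the neuronal subunit of the BAF remodelling complex, read 1.18 and 1.22 at day 9 and -0.71 and -0.50 at day 7 (log2 1.80, SE 0.18), and the neuronal BAF genes Ss18l1 and Smarcd3 rose by 0.90 and 0.64. The progenitor subunit genes Actl6a (-0.21) and Phf10 (-0.18) did not pass. Rest, the repressor of neuronal genes, fell by 0.52 on the log2 scale, and Nfia and Nfib, factors of late progenitors, rose by 1.02 and 1.01. The de novo methyltransferase gene Dnmt3b read -1.74 and -1.67 at day 9 and -0.66 and -0.73 at day 7 and fell by 1.01 on the log2 scale (SE 0.105, adjusted p = 0.000356), while Dnmt3a rose by 0.30.

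**Figure D4:**
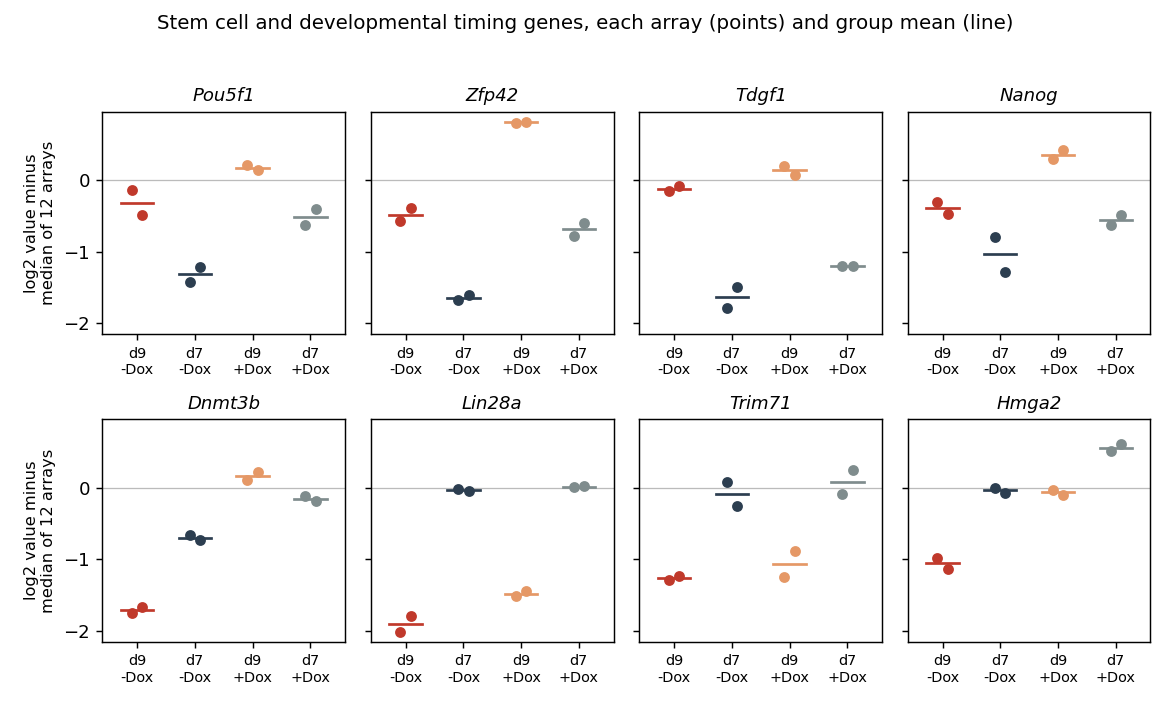
Centred log2 values (vertical axis) of 8 stem cell and timing genes in the rtTA-Dmrt5 arrays at day 9 and day 7, without Dox and with Dox; points are arrays and lines group means. Without Dox, Pou5f1, Zfp42, Tdgf1 and Nanog lie higher at day 9 and Dnmt3b, Lin28a, Trim71 and Hmga2 lower.

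Of the glycolysis and hypoxia genes, those that passed were all higher at day 9. Hypoxia-inducible factors switch on glycolytic enzymes and feedback regulators through promoter sites around the letters ACGTG. Of 20 genes 11 rose and 0 fell (median 0.46). Bnip3, which removes mitochondria in low oxygen, read 1.37 and 1.33 at day 9 and -0.19 and -0.27 at day 7 (log2 1.58, SE 0.0928, adjusted p = 1.66e-05). Pdk1, a kinase that inhibits pyruvate dehydrogenase, read 0.89 and 0.79 at day 9 and -0.59 and -0.56 at day 7 (log2 1.41, SE 0.132). Ankrd37 read 1.20 and 1.15 at day 9 and -0.43 and -0.16 at day 7 (log2 1.47, SE 0.123). No array of one day overlapped the other in these genes, as in all 2726 genes called and in 59% of all genes. Egln3, a prolyl hydroxylase that marks the factors for decay, rose by 1.17, the vasodilating peptide gene Adm by 1.30, the phosphofructokinase genes Pfkp and Pfkl by 1.65 and 0.85, and Ldha by 0.62. The glucose transporter gene Slc2a1 (-0.28), Pgk1 (0.20), Hk2 (0.07) and Car9 (0.22) did not pass. In the respiratory chain and mitochondrial ribosome list 1 of 19 genes passed, Mrps2, which fell by 0.34 on the log2 scale.

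The promoters of Bnip3, Egln3 and Ankrd37, all of which rose, are shown with the ACGTG letters in capitals, again as the 250 bases before the RefSeq start in GRCm38.p6. In Bnip3 a match on each strand overlaps in the palindrome CACGTG, which is also the core of an E-box.
Bnip3, chr7:138909507-138909756, minus strand: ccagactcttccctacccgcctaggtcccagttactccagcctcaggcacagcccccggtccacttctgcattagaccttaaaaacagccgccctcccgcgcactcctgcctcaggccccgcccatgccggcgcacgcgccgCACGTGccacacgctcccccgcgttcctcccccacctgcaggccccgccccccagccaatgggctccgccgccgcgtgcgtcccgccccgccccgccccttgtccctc
Egln3, chr12:54203875-54204124, minus strand: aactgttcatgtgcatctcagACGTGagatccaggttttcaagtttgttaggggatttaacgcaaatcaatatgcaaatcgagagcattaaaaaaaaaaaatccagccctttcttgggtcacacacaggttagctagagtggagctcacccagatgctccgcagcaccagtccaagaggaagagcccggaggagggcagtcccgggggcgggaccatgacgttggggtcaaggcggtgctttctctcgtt
Ankrd37, chr8:45999851-46000100, minus strand: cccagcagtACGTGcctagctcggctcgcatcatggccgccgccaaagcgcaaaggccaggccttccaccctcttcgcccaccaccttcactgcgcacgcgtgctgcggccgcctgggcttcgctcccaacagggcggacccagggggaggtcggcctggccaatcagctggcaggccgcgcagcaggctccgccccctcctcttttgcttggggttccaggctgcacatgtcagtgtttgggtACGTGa
ACGTG, read on both strands, stood in 13 of 25 windows of the glycolysis and hypoxia list (52%), in 7 of 25 of the replication list (28%) and in 5444 of 32851 windows in the table (16.6%). By gene, 12 of 18 with a window held it, among them 6 of the 11 that rose, and Slc2a1, Pgk1, Hk2 and Car9, which did not pass, held it too.

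The Wnt ligands and targets that passed were lower at day 9 with 1 exception, and most did not pass. Of 23 genes 9 fell and 1 rose (median -0.40); without 1 of the 4 arrays, 3 to 7 fell. Wnt3, a ligand of the canonical pathway, read -0.07 and 0.02 at day 9 and 0.98 and 1.20 at day 7 (log2 -1.12, SE 0.106, adjusted p = 0.000226). Wnt1, the ligand of the midbrain-hindbrain boundary, read -0.41 and -0.93 at day 9 and 0.39 and 0.50 at day 7 (log2 -1.12, SE 0.243). The ligand genes Wnt4, Wnt5a and Wnt5b fell by log2 0.69, 0.87 and 0.82, the target gene Sp5 by 0.94, and the inhibitors Dkk1, Notum and Rnf43 by 0.71, 0.40 and 0.77. Dkk3 rose by 0.76, and the targets Axin2 (-0.23) and Lef1 (0.75) did not pass. In the Fgf list 6 of 20 genes fell and 2 rose (median -0.18), or 3 to 5 fell without 1 of the 4 arrays. Il17rd, a membrane inhibitor of Fgf signalling, read -1.43 and -1.55 at day 9 and -0.14 and -0.21 at day 7 (log2 -1.32, SE 0.114, adjusted p = 0.000141), and Spry1, Dusp6 and Etv4 fell by log2 0.98, 0.80 and 0.63. Fgf4, an ES cell ligand, and Fgfr3 rose. Few genes moved in the other pathways. In the Bmp list 3 of 19 fell and 1 rose; among those that fell was Id3, a Bmp-induced inhibitor of proneural factors, at log2 -1.17. In the Shh list Cdon, a co-receptor, fell by 1.08 and the other 11 genes did not pass, the target genes Gli1 (-0.21) and Ptch1 (-0.14) among them. In the retinoic acid list the degrading enzyme Cyp26a1 fell by 1.30 and its relative Cyp26b1 rose by 1.09, and Crabp1, which binds retinoic acid, fell by 0.80.

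Regional genes changed in small numbers, which shrank to as few as 0 or 1 in some lists without 1 of the 4 arrays. Of 15 cortical genes 0 rose and 3 fell: Dmrta1, a relative of Dmrta2, by log2 1.27, Fezf1 by 0.61 and Fezf2, while Pax6, Nr2f1 (0.10) and Emx1 (0.42) did not pass. In the cortical hem list, where 3 of 18 rose and 3 fell, Reln, the secreted guide of Cajal-Retzius cells, read 0.76 and 0.86 at day 9 and -0.75 and -0.90 at day 7 (log2 1.63, SE 0.142). Otp and Mab21l1 (1.10) rose among 14 hypothalamus and eye field genes. Of 26 Hox genes 2 fell, Hoxb4 by 0.81 and Hoxd9 by 0.66, and 0 rose, which is near the share over all genes. Among caudal progenitor genes 2 of 12 rose and 4 fell, Nkx1-2 rising by 1.39 and Cdx2 falling by 0.89. In the midbrain list 1 of 18 rose and 3 fell, and En1 (0.15) and Otx2 (-0.11) did not pass. In the ventral spinal cord and hindbrain list 1 of 18 rose, Foxn4 (0.65), a factor of interneuron progenitors, and 3 fell, among them Dbx1 (-0.53). Over all genes 7.88% rose and 7.11% fell. The 1 increase in each of these last 2 lists is near that share, and their 3 decreases are few.

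Basement membrane and epithelial genes that passed were lower at day 9, and most members of both lists did not pass. Of 24 collagen and basement membrane genes 10 fell and 0 rose (median -0.38); without any 1 of the 4 arrays, 4 fell. Col18a1 read -1.25 and -1.22 at day 9 and 0.05 and -0.04 at day 7 (log2 -1.24, SE 0.134). The cartilage and notochord collagen gene Col2a1 fell by 0.93 on the log2 scale, Nid2 by 0.81, the laminin genes Lama5, Lamb1 and Lamc1 by 0.61, 0.50 and 0.43, and Col4a1 by 0.44. The mesenchymal collagens Col1a1 (0.64), Col1a2 (0.39) and Col3a1 (0.35) did not pass. Of 16 surface epithelium genes 5 fell and 0 rose (median -0.30), or 1 to 3 fell without 1 of the 4 arrays. Cdh1, the epithelial cadherin that ES cells share, read -1.03 and -1.13 at day 9 and -0.44 and -0.40 at day 7 (log2 -0.66, SE 0.0847, adjusted p = 0.000962). In mesoderm and endoderm 1 of 19 rose and 2 fell (0 to 1 and 1 to 2 without 1 of the 4 arrays), with Dab2 of the visceral endoderm at log2 -1.40. In mesenchyme and muscle 1 of 18 fell, Prrx1 (-0.64). In endothelium, blood and microglia 1 of 15 fell, Tek (-0.90), and 12 of the 15 had a level under log2 4, the lower classes in which calls were rare. For mesoderm and endoderm, mesenchyme and muscle, and endothelium, these counts are near or below the shares over all genes, 7.88% higher and 7.11% lower. Of 14 neural crest genes 3 rose and 1 fell; Tfap2a read 0.60 and 0.61 at day 9 and -1.0 and -0.92 at day 7 (log2 1.57, SE 0.109, adjusted p = 4.64e-05), and Snai2 fell by 1.01 on the log2 scale.

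Of 15 immediate early genes 5 rose and 0 fell. Fos read 0.72 and 1.15 at day 9 and -0.69 and -1.01 at day 7 (log2 1.79, SE 0.187, adjusted p = 0.000366), and Egr1, Ier3, Jun and Dusp1 rose by 1.0, 1.05, 0.70 and 0.61. Of 18 integrated stress response genes 4 rose and 1 fell (3 and 0 without 1 of the 4 arrays); Ddit3 rose by 0.68, and Atf4 (0.24) and Asns (0.09) did not pass. Of 18 imprinted genes 5 rose (2 to 3 without 1 of the 4 arrays) and 2 fell, Dlk1 and Magel2 by 1.55 and 1.22 and Mest by -0.86. In cholesterol synthesis 1 of 17 genes passed, Idi1, which fell by 0.38 on the log2 scale, and the list's median was 0.02.

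The same 2 days with Dox, measured on 4 other arrays, gave 2950 calls (16.2%), 1823 higher at day 9 (10%) and 1127 lower (6.19%). Of the 1433 genes higher without Dox, 798 were also called higher with Dox, which is 55.7% of those and 43.8% of the increases with Dox. Of the 1293 lower without Dox, 388 were called lower with Dox, 30.0% of those and 34.4% of the decreases with Dox. Both changes had the same sign in 84.7% of the genes called without Dox and in 58.2% of the genes not called, and 59 genes were called in opposite directions. Without 1 of the 4 arrays with Dox, 1196 to 2443 genes passed, the fewest without replicate 2 of day 7. Across all genes the changes correlated at r = 0.53, as a description, since genes are not independent. Of the 15 largest increases without Dox, 13 were also called higher with Dox and 6 passed the test of the difference described next; their changes with Dox ran from log2 0.17 (Sez6l) to 3.15. Lamp5, Shox2 and Gad2 changed by 0.78, 0.75 and 1.21 with Dox, while Chl1 changed by log2 3.15 with Dox, Cbln2 by 3.02 and E130114P18Rik by 2.19. Cytoskeleton (15 of 21 higher, median 0.77), synaptic release (17 of 26, median 0.67) and ES cell genes (17 of 25, median 0.85) also rose with Dox, and Lin28a and Trim71 fell with Dox (log2 -1.49 and -1.15).

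Testing the difference between the changes directly, 441 genes passed (2.42%), with 181 more positive without Dox (0.995%) and 260 more negative (1.43%); 268 of the 441 were among the 2726. Without 1 of the 8 arrays in turn, 84 to 583 genes passed; the fewest, 84, came without replicate 1 of day 7 without Dox and without replicate 2 of day 7 with Dox. Controls moved between days in the arrays with Dox: day 9 minus day 7, the hybridisation spike-ins differed by -0.054 without Dox and by -0.546 with it, the 3′ minus 5′ signal of Actb by -0.081 without and 0.249 with it, and that of Gapdh by -0.016 without and 0.144 with it. The polyA spike-ins differed by -0.029 without Dox and -0.028 with it. Their part in the differences was not tested. Calb1, the calcium-binding protein calbindin, read 1.49 and 1.41 at day 9 and -0.38 and 0.11 at day 7 without Dox, and -0.70 and -1.12 at day 9 and -0.11 and -0.23 at day 7 with Dox. It thus rose without Dox and fell with it, a difference of 2.32 (SE 0.295, adjusted p = 0.00733). With the mean of all its probe sets the change without Dox was 0.59 and the difference 0.96, and it still passed (adjusted p = 0.0202). Crhbp, which binds corticotropin-releasing hormone, behaved likewise, with a log2 change of 1.11 without Dox and -1.21 with it (difference 2.32, adjusted p = 0.00554). Sez6l (difference 2.25), Shox2 (2.05) and Lamp5 (2.03) rose more without Dox, and for 4930481B07Rik (1.90) the change lay with Dox, at log2 -1.86 against 0.04 without.

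At the other end, Olig2 fell without Dox and rose by 1.47 with it. Its arrays with Dox read 1.20 and 1.18 at day 9 and -0.35 and -0.21 at day 7, and the difference was -2.59 (SE 0.284, adjusted p = 0.00465). Pla2g7 changed by log2 -2.13 without Dox and 0.43 with it (difference -2.56, adjusted p = 0.000726). Mcoln3, a cation channel of endolysosomes, and Cntn6, a contactin, also fell without Dox and rose with it, with differences of -2.32 and -2.29. With the mean of all probe sets the difference was -1.25 for Mcoln3 and 1.14 for Sez6l, both still past the threshold. For P2ry14 (-2.10) and 3110039M20Rik (-2.04) the day change without Dox did not pass. P2ry14 and 4930481B07Rik lost the call of a difference in 7 and 6 of the 8 fits that left out 1 array, and Cntn6 when replicate 2 of day 7 with Dox was left out (adjusted p = 0.0537).

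**Figure D5:**
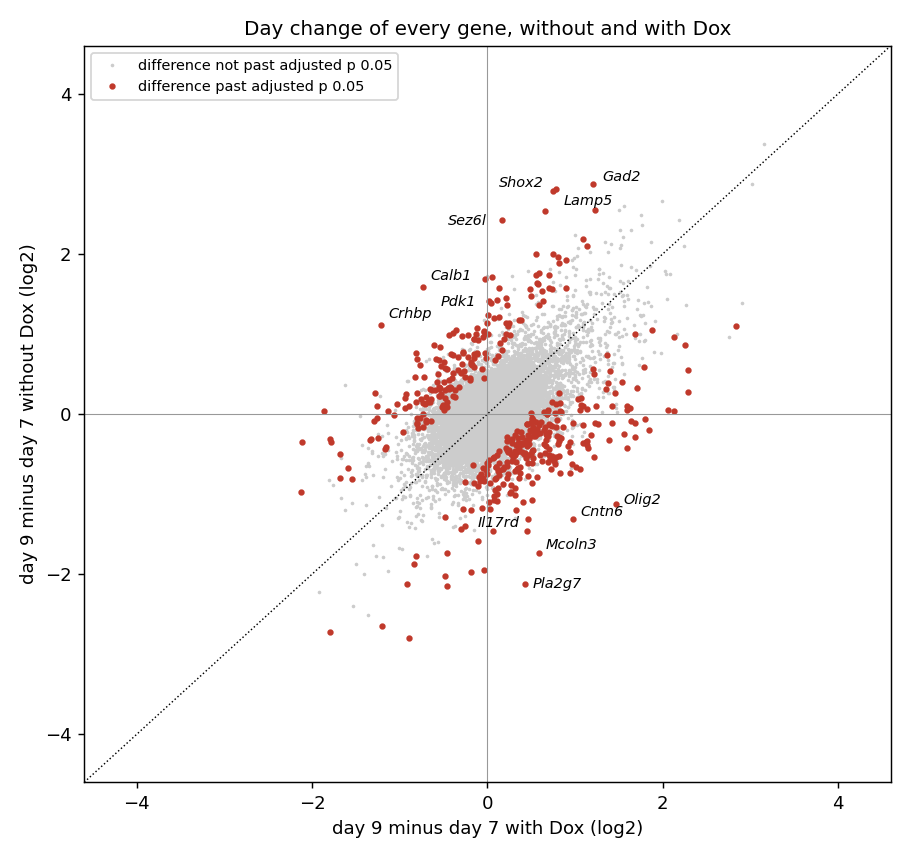
Day 9 minus day 7 change of all 18193 genes without Dox (vertical axis, log2) against the same change with Dox (horizontal axis, log2); red points are the 441 genes whose changes differ at adjusted p 0.05 and the dotted line marks equal change. Calb1 and Crhbp lie at upper left, Olig2, Cntn6 and Mcoln3 at lower right.

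By list, the difference test found the most genes among GABA neurons, where 5 of 18 were more positive without Dox (Gad1, Gad2, Gata2, Lhx1 and Calb1) and 1 more negative (Npy). Over all genes tested, 0.995% were more positive without Dox and 1.43% more negative. The counts of differences by list were not repeated in other settings. With only the 8 arrays compared, the total of 441 became 250. Gad2 read 0.23 and 0.05 at day 9 and -1.10 and -1.03 at day 7 with Dox, a log2 change of 1.21, and the difference of 1.66 passed (SE 0.198, adjusted p = 0.00636). The GABA list's median change was 0.99 without Dox and 0.21 with it. Among glycolysis and hypoxia genes 4 of 20 were more positive without Dox (Eno2, Pdk1, Bnip3 and Ankrd37) and 0 more negative, with medians of 0.46 without Dox and 0.04 with it. Pdk1 changed by log2 0.02 with Dox (difference 1.39, adjusted p = 0.00891). Of the Fgf list 4 of 20 were more negative without Dox: Il17rd, Spry1, Dusp6 and Etv4, which changed by log2 0.47, 0.27, 0.36 and 0.96 with Dox. The rest of the list did not pass this test, further feedback and target genes of the Spry, Spred and Etv families among them. Of the Wnt list 4 of 23 were also more negative without Dox and 0 more positive, with medians of -0.40 without Dox and -0.30 with it. Collagen and basement membrane genes had 5 of 24 more negative without Dox (Col2a1, Lamb1, Lamc1, Nid1 and Nid2), with medians of -0.38 without Dox and 0.17 with it. Epithelial genes had 3 of 16 more negative without Dox, Epcam, Cdh1 and Cldn6. Of DNA replication genes 20 of 24 fell without Dox and 7 with it (medians -0.45 and -0.14), and 2 passed the test of the difference, Mcm2 (-0.48, adjusted p = 0.0497) and Mcm3 (-0.59, adjusted p = 0.0278). Among ES cell genes Dnmt3b (-1.33) and Sall4 (-0.67) were more negative without Dox and the other 23 did not pass.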

How the data were processed

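Per the labels' protocols, 5 ng of total RNA per sample was amplified and labelled with biotin by the NuGEN Ovation kit. RMA was used by the authors, per the submitters' processing notes, with no version stated. Their deposited values were read as log2, the scale RMA reports, and each of 45101 probe sets is centred on its median over the 12 arrays, a step no source used here mentions. Scanner files were not analysed here.

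The platform's annotation named 1 gene for 34945 probe sets, several for 932 and none for 9160, beside 64 controls; 34741 gene numbers were found in RefSeq's GRCm38.p6 table and 0 symbols changed. The spacing of the single-precision values gives the power of 2 in which a probe set's median level lay. Each of 18193 genes took the mean of its probe sets in the highest such class; no gene was filtered out. limma 3.58.1 in R 4.3.3 fitted a mean per group over all 12 arrays (6 residual and 3.59 prior degrees of freedom), with two-sided moderated tests, each comparison's p-values adjusted by Benjamini-Hochberg and called at 0.05. Tested on simulated data of 18193 genes for day 9 minus day 7 without Dox, the fit called 78 of 100 genes changed by log2 1, 22 of 100 changed by 0.5 and 9 of 17993 unchanged. Far fewer genes changed there than were called in the data. The adjusted threshold depends on that share, so these rates do not describe the real comparison. The rule named the 15 largest increases and decreases past the threshold with groups that do not overlap, 6 and 6 for the difference, Dmrta2, and members of 47 lists with 803 measured genes, some in several lists. The members and lists were chosen with earlier results of these data known. Promoters are RefSeq windows of GRCm38.p6. Tables were handled in Python 3.11.15 (pandas 2.3.3), plots in matplotlib 3.10.9. Replicate numbers did not pair the samples.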

Additional observations from a re-analysis of the deposited data

Results flagged for a closer look

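The day change differed between cells without and with Dox, by a test of the difference itself, in 441 genes. Those with the most positive differences (change without Dox minus change with Dox, log2) were Crhbp at 2.32, Calb1 at 2.32, Sez6l at 2.25, Shox2 at 2.05, Lamp5 at 2.03 and 4930481B07Rik at 1.90. The most negative were Olig2 at -2.59, Pla2g7 at -2.56, Mcoln3 at -2.32, Cntn6 at -2.29, P2ry14 at -2.10 and 3110039M20Rik at -2.04. The 2 arrays per group were too few for a test of single arrays that stand apart.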

How the results depend on the processing

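The count of 2726 genes for day 9 against day 7 without Dox came to 1217 to 1573 when 1 of the 4 arrays was left out, and to 2206 with only the 4 arrays, 2493 with a replicate block, 2340 with the mean of all probe sets, 1890 of 5983 genes with a level of at least 8 (825 higher and 1065 lower), 2765 with arrays centred on their medians, 2941 with quantile normalization, 2636 with robust eBayes, 3628 with array quality weights and 3428 of 34945 probe sets tested singly. The 2-fold decreases numbered 209 after quantile normalization, against 124. The count with Dox, 2950, became 1405 with only its 4 arrays and 1196 to 2443 in leave-outs. The count of differences, 441, became 250 with only the 8 arrays, 295 with a replicate block, 280 with the mean of all probe sets and 84 to 583 in leave-outs. Replicate numbers correlated at -0.047 between the 2 groups, so the block is a shared number only; by it 2407 of the 2726 calls were kept and Dlx1, Dlx5, Lamc1, Mcm7, Neurod2 and Notch2 lost theirs. Of 191 named genes that passed, 51 lost the call without 1 of the 4 arrays: Bcl11b, Cdh2, Cdkn1c, Col4a1, Cyp26b1, Dbx1, Dkk1, Dkk3, Dlx1, Dlx5, Dnmt3a, Dnmt3l, Dusp6, Ebf1, Ebf3, Etv4, Fezf1, Fezf2, Foxn4, Hoxb4, Hoxd9, Idi1, Igf2bp1, Insm1, Lama5, Lamb1, Lamc1, Mab21l1, Mcm5, Mcm7, Mrps2, Nanog, Neurod2, Nhlh1, Notch1, Notch2, Notum, Nr4a2, Numbl, Prrx1, Rnf43, Slc17a6, Sox1, Sp5, St18, Tbx3, Tcl1, Tubb3, Wnt1, Wnt4 and Wnt5b. Some of these, Tubb3, Dlx1, Dlx5, Neurod2, Insm1 and Mcm7 among them, lost it whichever array was left out, in fits with 1 array in a group. None of the 191 changed sign in any alternative. Signs turned for small changes that had not passed; the cause was not tested. After quantile normalization 4930481B07Rik was at -0.0251 and Th at -0.0597. In leave-outs 4930481B07Rik ran between -0.115 and 0.195, Aldh1a1 between -0.11 and 0.0107, Fabp7 between -0.0379 and 0.138, Gfap between -0.2205 and 0.0328, Hk2 between -0.0553 and 0.190, Klf4 between -0.0228 and 0.0902, Mki67 between -0.178 and 0.0042 and P2ry14 between -0.0458 and 0.124. Dmrta2 passed with only the 4 arrays and after quantile normalization, with its direction unchanged. The number of arrays limits small changes: the smallest to pass was 0.271.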
